A study of Rattus norvegicus with 25 samples.

Results

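Gene expression in the basolateral amygdala (BLA) was compared between rats that had gone through a single severe stressor and rats that had not, whatever the later behavior of the stressed rats. The members were the BLA libraries themselves. They comprised 6 libraries of stress-exposed rats (animals 7, 19, 20, 22, 30 and 34) and 6 control libraries (animals 14, 17, 27, 28, 32 and 35), 12 of the 25 libraries of the series. The other 13 libraries were the BLA library of control animal 2, which the study left out as an outlier in principal component analysis (PCA), and 12 libraries of the dentate gyrus (DG).

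All animals were adult male wild-type Sprague-Dawley rats, pair-housed and handled before the experiment. The stress-exposed rats were immobilized for 3 h next to a cage mate with fox urine as predator scent, and were then kept in a separate room for the first nights before they returned to the colony. Tail vein blood was drawn from them during the immobilization. Control rats stayed in the home cage and had a cage change. All animals then went through a battery of avoidance and startle tests. On day 9 after stress, punches of the left BLA were taken from frozen sections, and poly-A RNA was sequenced. The 6 stress-exposed rats came from both ends of the behavioral range, with 3 low scores (stress-low) and 3 high scores (stress-high), so that stressed rats with scores in between are not represented. Stress exposure, restraint, odor, blood sampling and the separate room cannot be told apart in this design. The labels disagree on control animal 35. Its BLA library is named a control in the count table, but the treatment field of that library reads stress. Its DG library is also named a control. The study selected 6 controls before exclusions, fewer than the BLA libraries named controls, so its count does not settle the label. It was used as a control, and the counts and the values that it moved most are also given without it.

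The BLA is the input station of the amygdala. Most of its neurons are glutamatergic projection cells, surrounded by smaller numbers of GABAergic interneurons, and it links sensory events to fear and avoidance. Acute stress acts there in 2 waves. Synaptic activity induces immediate early genes within minutes, and corticosterone, acting through the glucocorticoid receptor, then induces genes such as Fkbp5, Tsc22d3 and Sgk1 over hours. The samples of day 9 were taken long after both waves, and after the behavioral testing that all groups went through.

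The libraries held 12709493 to 22801247 expected counts (estimated reads per gene, which need not be whole), with a median of 16465526. The medians were 16465526 in controls and 16371391 in stress-exposed rats. On the first 2 principal components, which took 16.1% and 13.3% of the variance, control and stress-exposed libraries overlapped. The BLA markers were present: in controls the glutamatergic genes Slc17a7 (vesicular glutamate transporter), Camk2a and Lmo3 stood at 1044, 909 and 183 TPM (transcript abundance scaled for transcript length and library size), and Rspo2, a marker of BLA projection neurons, at 12.3 TPM. In tissue punches, fewer cells of a type and less RNA per cell cannot be told apart. Markers of the neighboring striatum and central amygdala varied with the library. Their summed level was 157 to 389 TPM in controls, the highest in animal 35, and 161 to 389.8 TPM in stress-exposed rats, the highest in animal 30. The next highest were 188 TPM in control animal 14 and 243 TPM in stress-high animal 20. In the BLA library of animal 2 the sum was 586 TPM.

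No gene passed the test for stress exposure after adjustment over all 15230 genes tested. Pooled over both behavioral groups, 462 genes (3.03% of those tested) had an unadjusted p under 0.05 in edgeR's quasi-likelihood test. Of these, 193 (1.27%) were higher and 269 (1.77%) lower after stress. The smallest adjusted p was 1.0. The median absolute log2 difference was 0.06 and its median standard error 0.09. Every value below is therefore a measured difference that did not pass the adjusted test. Without animal 35 the number at an unadjusted p under 0.05 was 606, and without animals 30 and 35 it was 510; no gene passed after adjustment in either fit. Leaving out each library in turn gave 1 gene after adjustment, without stress-high animal 20. This was RGD1565183, at 62.7 ± 10.8 TPM (SD) in controls and 38.0 ± 17.7 TPM (SD) after stress, with -0.35 in stress-low and -1.33 in stress-high on the log2 scale. In a fit of 2 groups with animal 35 counted as stress-exposed, as its treatment field reads, 813 genes had an unadjusted p under 0.05, against 482 in the same fit with it as a control, and none passed after adjustment in either. Members of the gene lists described further on were also picked at an unadjusted p under 0.05, which 3.03% of all genes tested had. Of 26 such single members, 16 had a p over 0.05 on leaving out some single library.

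The sign of the difference was the same in stress-low and stress-high rats for 9927 genes (65.2% of those tested). Both comparisons use the same 6 controls, which by itself pulls their signs together. Of the 462 genes, 459 had the same sign in both groups, 193 higher and 266 lower, which the pooling largely fixes. A stricter reading asked for an unadjusted p under 0.05 in each behavioral group on its own, and 61 genes (0.401%) met it with the same sign, 30 higher and 31 lower, against 2 with opposite signs. The stress groups differed from each other at an unadjusted p under 0.05 in 302 genes (1.98%), and 29 of the 462 were among them. Set beside each other, the separate comparisons gave 419 genes (2.75%) for stress-low and 392 (2.57%) for stress-high at that threshold, each with none after adjustment.

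Rnf135, an E3 ubiquitin ligase that promotes antiviral signaling by the RNA sensor RIG-I, had the smallest p among the higher genes. Its level was 1.61 to 2.34 TPM in controls (median 1.97), 3.13, 3.53 and 3.49 TPM in stress-low rats, and 2.54, 2.63 and 2.85 TPM in stress-high rats. Every stress-exposed library lay above every control. The pooled log2 fold change was 0.60 ± 0.13 (SE), with an unadjusted p of 3.87e-04 and an adjusted p of 1.0 in edgeR. An exact permutation test of log2(TPM + 1), 6 libraries against 6, gave p = 0.00216, the smallest p this design allows. Rnf135 was picked on the same difference in the same libraries, so this p is not separate support. Without animal 35 the log2 fold change was 0.56. The library of animal 2, which is not among the 6 controls, held 3.33 TPM and would close the gap.

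Pcp4, a small calmodulin-binding protein abundant in subsets of forebrain and cerebellar neurons, was at 198 to 259 TPM in controls (median 212), at 234, 369 and 246 TPM in stress-low rats and at 289, 275 and 343 TPM in stress-high rats. Only control animal 35 reached into the range of the stress-exposed libraries. The log2 fold change was 0.41 ± 0.09 (SE), and it was 0.48 without animal 35 and 0.38 without animals 30 and 35. Those 2 libraries had the highest striatal and central amygdala marker sums, and their part in the difference was not otherwise tested. The left-out control animal 2 had 334 TPM.

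Tac1, which encodes the precursor of substance P, had a median of 7.47 TPM in controls (6.44 to 9.19). It stood at 8.47, 12.0 and 9.09 TPM in stress-low rats and at 10.4, 13.0 and 11.7 TPM in stress-high rats, so the stress-high libraries lay above all controls and the stress-low libraries overlapped with them. Its log2 fold change was 0.49 ± 0.12 (SE), with 0.34 in stress-low and 0.63 in stress-high. Npsr1, the receptor for neuropeptide S, a peptide that raises arousal and lowers fear responses in the amygdala, was low in all groups. Controls had 0.61 to 1.53 TPM (median 1.22), stress-low rats 0.58, 3.66 and 1.84 TPM, and stress-high rats 2.34, 2.52 and 4.73 TPM. The stress-low value of animal 22 was below every control. The log2 fold change of 1.082 ± 0.33 (SE) became 0.74 without animal 30. Lypd6b, a modulator of nicotinic acetylcholine receptors, had a log2 fold change of 0.50 ± 0.14 (SE), from 3.20 ± 0.72 TPM (SD) in controls to 4.56 ± 0.89 TPM (SD) after stress.

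**Figure D1:**
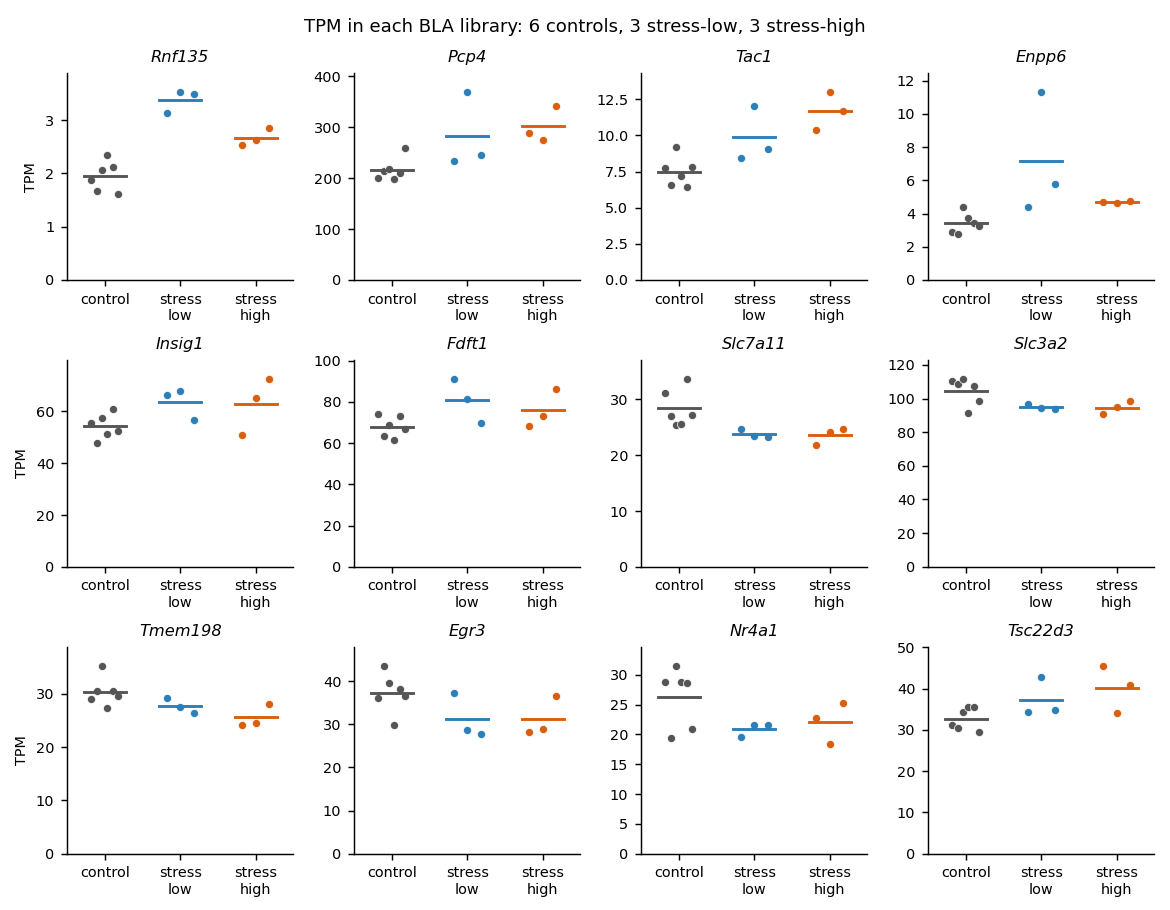
TPM (vertical axes, starting at 0) of 12 genes in each BLA library of the control, stress-low and stress-high groups, with 1 point per library and a line at the group mean. The 6 stress-exposed libraries of Rnf135 lie above all controls and those of Slc7a11 below all controls in TPM, while in Insig1, Egr3 and Nr4a1 the groups overlap.

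Among the remaining higher genes, Enpp6, a choline-specific phosphodiesterase that marks newly forming oligodendrocytes, had no overlap between groups after library scaling. In TPM it stood at 2.78 to 4.42 (median 3.33) in controls, at 4.39, 11.3 and 5.78 in stress-low rats and at 4.69, 4.63 and 4.75 in stress-high rats. One library, animal 30, was far above the rest. The log2 fold change was 0.74 ± 0.19 (SE), and without animal 30 it was 0.52. The left-out animal 2 had 6.19 TPM. Cxcl16, a transmembrane chemokine, was at 1.5 ± 0.39 TPM (SD) in controls and 2.66 ± 0.84 TPM (SD) after stress, a log2 fold change of 0.79 ± 0.21 (SE). Cdc42ep5, an effector of the small GTPase Cdc42, had the largest log2 fold change of the 12 higher genes, 1.22 ± 0.37 (SE), but control animal 17, at 5.11 TPM, lay within the stress range of 4.09 to 5.90 TPM.

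Among lower genes with a mean of at least 1 TPM and a single identifier, Slc7a11 had the smallest p. Slc7a11 encodes xCT, the transport subunit of the cystine/glutamate exchanger. It takes up cystine for glutathione synthesis and releases glutamate from astrocytes. Slc3a2, further down the order by p, encodes the heavy chain that carries xCT to the membrane. Slc7a11 was at 25.5 to 33.7 TPM in controls (median 27.2), at 24.7, 23.4 and 23.2 TPM in stress-low rats and at 21.8, 24.2 and 24.8 TPM in stress-high rats. In TPM every stress-exposed library lay below every control, though the left-out animal 2, at 22.2 TPM, lay within the stress range. The log2 fold change was -0.28 ± 0.07 (SE), nearly the same in stress-low (-0.29) and stress-high (-0.26), and it was -0.28 without animal 35. The exact permutation p in TPM was 0.00216 and the adjusted p in edgeR 1.0. Slc7a11 was picked on this same difference, so the permutation p is not separate support. After library scaling its groups overlapped in the main set, and also with animal 35 left out or animal 2 added.

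Slc3a2 was lower by a smaller amount. Controls had 91.4 to 112 TPM (median 108), stress-low rats 96.5, 94.6 and 93.6 TPM, and stress-high rats 90.5, 94.9 and 98.6 TPM. The groups overlapped through control animals 28 and 35, and the log2 fold change was -0.16 ± 0.05 (SE). Slc1a2, the astrocytic glutamate transporter GLT-1 that clears most synaptic glutamate, was at 515 ± 44.6 TPM (SD) in controls and 461 ± 42.0 TPM (SD) after stress, with overlapping libraries and a log2 fold change of -0.18 ± 0.05 (SE). Ptprz1, a receptor phosphatase of astrocytes and oligodendrocyte precursors, had a log2 fold change of -0.14 ± 0.04 (SE). The astrocyte marker list as a whole had a median log2 fold change of -0.01 over 10 genes, Slc1a2 among them, and its summed level was 2704 to 3085 TPM in controls and 2608 to 3075 TPM after stress.

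Tmem198, a membrane protein that enhances Wnt signaling, was lower in both groups, by -0.17 in stress-low and -0.24 in stress-high on the log2 scale. Its libraries did not overlap after library scaling, also with animal 2 included, but in TPM they did. Wnt9a, a Wnt ligand, had a log2 fold change of -0.25 ± 0.08 (SE). Tes and Tmod3, which organize and cap actin filaments, had -0.43 ± 0.12 and -0.23 ± 0.07 (SE). Slc18a1, the vesicular monoamine transporter 1, had the most negative value of the 12 lower genes, -0.72 ± 0.20 (SE), at levels of only 1.49 ± 0.40 TPM (SD) in controls and 0.93 ± 0.19 TPM (SD) after stress.

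**Figure D2:**
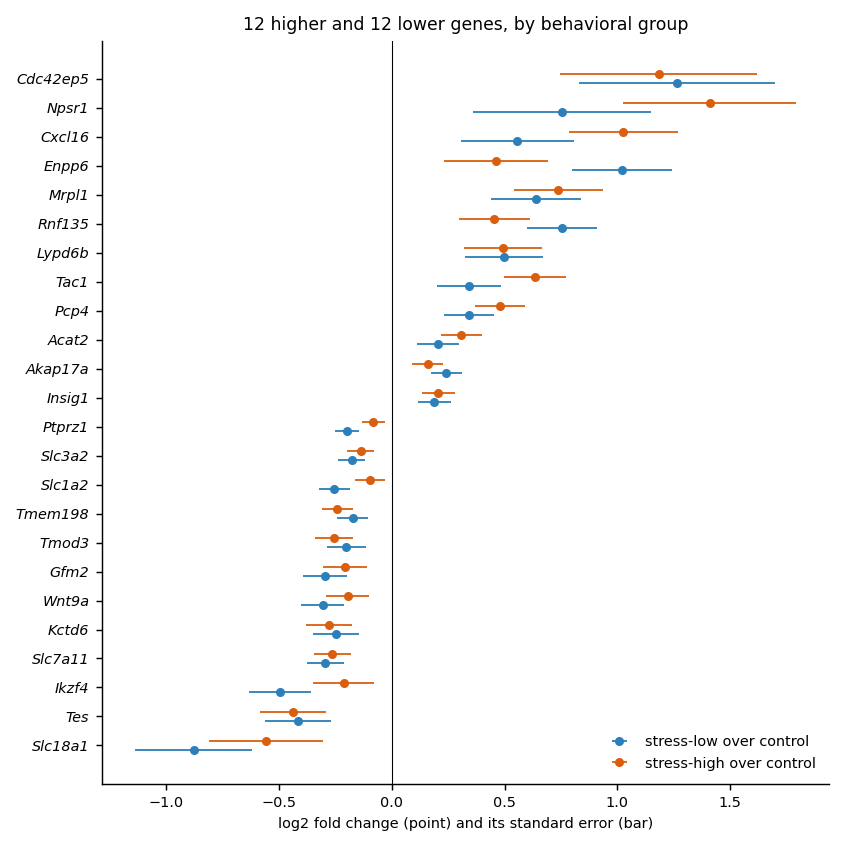
Log2 fold change over control (horizontal axis) of the 12 higher and 12 lower genes with the smallest unadjusted p, with the stress-low and stress-high values beside each other and bars for 1 standard error. The genes were chosen on the pooled difference, so both points lie on the same side of 0 by selection. The points differ most for Npsr1 (0.75 and 1.41) and Enpp6 (1.02 and 0.46).

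The libraries of the 2 groups did not overlap for 25 genes (0.164% of those tested), 9 higher (0.0591%) and 16 lower (0.105%) after stress, in log2 CPM. Random labels would separate the libraries of any 1 gene this way with a probability of 0.00216, and the share seen was no higher. With animal 2 added to the controls the number of such genes was 15, without animal 35 it was 60, and in TPM as deposited it was 12. At a mean of at least 1 TPM, 20 genes were left, many of them with small differences. Tbc1d20, a Rab1 GTPase-activating protein, had a log2 fold change of -0.16 ± 0.05 (SE), Sgms1, a sphingomyelin synthase, -0.15 ± 0.05 (SE), and Wdr20, a cofactor of deubiquitinases, -0.14 ± 0.05 (SE). LYRM1 stood at 0.35 ± 0.11 (SE). Below that level, and named after their values were seen, Myl3, a myosin light chain, was at 1.42 ± 0.41 TPM (SD) in controls and 0.47 ± 0.18 TPM (SD) after stress, with the smallest unadjusted p of all genes (2.45e-04 in edgeR), and Scara5, a ferritin receptor, was at 0.99 ± 0.18 and 0.40 ± 0.20 TPM (SD).

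Genes of cholesterol synthesis were on the higher side. The brain makes its cholesterol locally, and the pathway is governed by the factor SREBP-2 (Srebf2) and its retention protein Insig1. Of 15 list members tested, 14 had a positive log2 fold change, with a median of 0.12 beside a median of -0.004 over all genes tested, and the median was 0.11 in each behavioral group. At an unadjusted p under 0.05, 3 were higher (Insig1, Fdft1 and Sqle), none was lower, and none passed after adjustment. Over all genes tested, 1.27% were higher at that threshold. The median was 0.11 without animals 30 and 35. Summed over the list, controls had 900 to 1137 TPM and stress-exposed rats 975 to 1255 TPM, so the ranges overlapped.

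Insig1 was at 47.7 to 60.8 TPM in controls (median 54.0), at 66.5, 67.7 and 56.5 TPM in stress-low rats and at 50.8, 65.4 and 72.6 TPM in stress-high rats, so 2 of the 6 stress-exposed libraries lay within the control range. Its log2 fold change was 0.20 ± 0.06 (SE). Fdft1, squalene synthase, had 0.18 ± 0.06 (SE), and Sqle, squalene epoxidase, 0.16 ± 0.06 (SE). Dhcr7, at the end of the pathway, had -0.001, with an unadjusted p over 0.05. Acat2, a cytosolic thiolase that makes the acetoacetyl-CoA used at the start of the pathway, is not on the list and was named for its own p; it had 0.26 ± 0.08 (SE).

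Markers of mature oligodendrocytes were on the same side. All 10 listed genes tested had positive values, with a median of 0.16. Only Cldn11, the tight junction protein of myelin, had an unadjusted p under 0.05, at 0.16 ± 0.07 (SE) and 0.09 without animal 30 (unadjusted p of 0.163), from 100 ± 7.65 TPM (SD) to 114 ± 18.2 TPM (SD). Of all genes tested, 1.27% were higher at that threshold. Mbp, a main myelin protein, had 0.17. The summed level of the list was 2620 to 3556 TPM in controls and 3059 to 4767 TPM after stress, the highest in animal 30, so the ranges overlapped. Without animals 30 and 35 the median was 0.12. The part that oligodendrocyte content has in the cholesterol values was not tested.

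Immediate early genes were on the lower side. These activity-induced genes are short-lived, so their level reflects the hours before sampling. Of 19 members tested, 16 had a negative log2 fold change, with a median of -0.14 (-0.19 in stress-low and -0.13 in stress-high), and 4 were lower at an unadjusted p under 0.05 (Egr3, Nr4a1, Arc and Btg2). None passed after adjustment, and over all genes tested 1.77% were lower at that threshold. Egr3, a zinc finger factor, was at 29.9 to 43.6 TPM in controls (median 37.4), at 37.3, 28.6 and 27.8 TPM in stress-low rats and at 28.2, 29.0 and 36.7 TPM in stress-high rats. In each stress group 1 library came close to the control median, and control animal 28 lay among the lower stress-exposed libraries. The log2 fold change was -0.28 ± 0.09 (SE).

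Nr4a1, an orphan nuclear receptor, was at 28.8, 19.3, 31.5, 28.9, 28.6 and 20.8 TPM in control animals 14, 17, 27, 28, 32 and 35, and at 18.4 to 25.3 TPM after stress. Control animals 17 and 35 fell within the stress range. Its log2 fold change was -0.31 ± 0.11 (SE), and -0.36 without animal 35. Arc, which drives removal of AMPA receptors from synapses, had -0.30 ± 0.14 (SE), and Btg2, an antiproliferative gene, -0.42 ± 0.19 (SE), which became -0.52 without animal 35. Fos had -0.16 and Egr1 -0.04, neither with an unadjusted p under 0.05, and Npas4 had 0.11. The summed level of the list was 328 to 412 TPM in controls and 314 to 384 TPM after stress. It was 547 TPM in the left-out animal 2.

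Btg2 and Nr4a1 had a reference promoter in RefSeq (rat build GRCr8), shown here for the letters TGACG, the core of the element bound by CREB, which links synaptic activity to these genes. The search covered both strands of the 250 bases before the start of transcription, and 18.2% of 33469 rat promoters held the letters at least once. Capitals mark each match, on either strand. Of the 14 list members with a promoter in that table, 8 held a match.
Btg2, chr13:48087691-48087940, minus strand: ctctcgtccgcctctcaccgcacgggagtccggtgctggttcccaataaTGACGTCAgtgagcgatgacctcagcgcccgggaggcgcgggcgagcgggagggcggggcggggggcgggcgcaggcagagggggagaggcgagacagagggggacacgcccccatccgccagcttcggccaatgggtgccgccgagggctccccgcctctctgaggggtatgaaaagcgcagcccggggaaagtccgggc
Nr4a1, chr7:134259888-134260137, plus strand: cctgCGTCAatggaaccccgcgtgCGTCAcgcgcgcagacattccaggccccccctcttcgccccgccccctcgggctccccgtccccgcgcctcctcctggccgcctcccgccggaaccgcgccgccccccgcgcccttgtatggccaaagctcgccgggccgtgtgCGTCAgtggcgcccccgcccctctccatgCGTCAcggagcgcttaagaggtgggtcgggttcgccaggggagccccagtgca
The match in Btg2 is a palindrome read on both strands, TGACGTCA, and Nr4a1 has 4 separate matches. The letters describe the reference sequence only, and no binding was measured.

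Genes that corticosterone induces were split. Of 20 members tested, 10 had positive and 10 negative values, with a median of 0.009. At an unadjusted p under 0.05, 2 were higher, beside 1.27% of all genes tested. Cdkn1a, the cell cycle inhibitor p21, was at 2.05 to 3.21 TPM in controls (median 2.59), at 3.63, 4.27 and 3.01 TPM in stress-low rats and at 3.22, 3.22 and 3.30 TPM in stress-high rats, and 1 stress-exposed library lay within the control range. Its log2 fold change was 0.38 ± 0.13 (SE). Tsc22d3, the glucocorticoid-induced leucine zipper GILZ, had 0.23 ± 0.09 (SE), from 32.8 ± 2.73 TPM (SD) to 38.8 ± 4.99 TPM (SD). Without stress-high animal 7 it had 0.14 (unadjusted p of 0.0719), and without animals 30 and 35 it had 0.17 (unadjusted p of 0.108). The classic reporters of recent glucocorticoid action were near 0, with Fkbp5 at 0.02, Per1 at -0.03 and Sgk1 at -0.01.

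**Figure D3:**
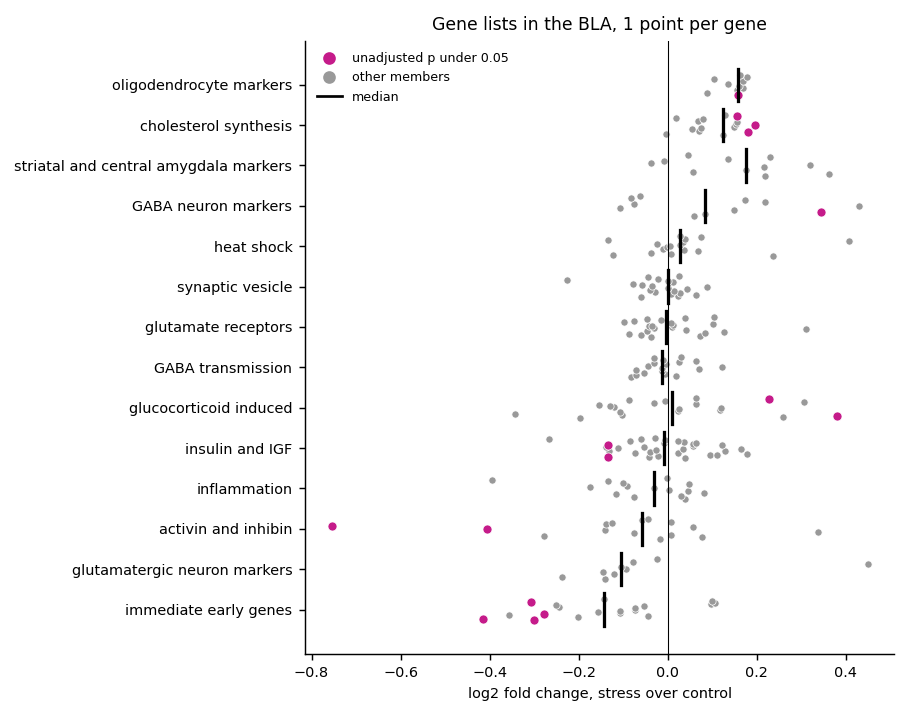
Log2 fold change of stress over control (horizontal axis) for each tested member of 14 gene lists, with 1 point per gene, colored where the unadjusted p was under 0.05, and a bar at the list median. The oligodendrocyte and cholesterol lists lie mostly above 0 (medians 0.16 and 0.12), the immediate early genes mostly below (median -0.14), and most other lists center near 0.

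In the stress hormone system, 1 of 16 members with a single identifier had an unadjusted p under 0.05, beside 3.03% of all genes tested. That gene, LNPEP, the receptor and peptidase for angiotensin IV and oxytocin, was lower, -0.40 ± 0.13 (SE), but its values were -0.71 in stress-low and -0.09 in stress-high, so the pooled value rests mainly on stress-low. The expected counts of LNPEP were whole multiples of 42.53, within 0.01 of a step, in 6 of the 12 libraries, from 3 to 8 steps, so they are coarser than single reads. The glucocorticoid receptor is listed under 2 identifiers, at 28.8 ± 2.53 TPM (SD, Nr3c1) and 24.0 ± 2.10 TPM (SD, NR3C1) in controls, with log2 fold changes of 0.07 and -0.08. Crh and its receptor Crhr1 had -0.08 and -0.12, with unadjusted p-values over 0.05.

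Insulin signaling and activin signaling had a few lower members each. Of 31 insulin and IGF genes, 2 were lower at an unadjusted p under 0.05, beside 1.77% of all genes tested. Irs2, an insulin receptor substrate, had -0.13 ± 0.05 (SE) and the kinase Akt2 -0.13 ± 0.06 (SE), while the list median was -0.008. Irs2 had -0.09 without control animal 27 (unadjusted p of 0.0767), and Akt2 had -0.12 without animal 35 (unadjusted p of 0.0708). Of 15 activin and inhibin genes, 2 were lower: Inhba, the subunit of activin A, at -0.75 ± 0.33 (SE) from 1.0 ± 0.32 TPM (SD) in controls, and Fstl3, an activin-binding follistatin family member, at -0.41 ± 0.19 (SE) from 1.33 ± 0.25 TPM (SD). Both sit near 1 TPM. Inhba had -0.71 without animal 35 (unadjusted p of 0.0682), and Fstl3 had a p over 0.05 in 10 of the 12 fits that each left out 1 library. Inhbb, the other activin subunit, had -0.14 ± 0.20 (SE), from -0.28 without control animal 35 to -0.03 without control animal 27. In the fit with identifiers of one name summed, Inhbb had -0.46 in stress-low and 0.18 in stress-high.

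Lists for synaptic function had medians near 0 and no member at an unadjusted p under 0.05. They covered GABA transmission (18 genes, median -0.01), glutamate receptors (22 genes, -0.003), synaptic vesicles (21 genes, 0.0006), monoamine receptors (20 genes, 0.05), endocannabinoid signaling (7 genes, -0.04) and neurotrophins (7 genes, -0.02). The same held for heat shock (17 genes, 0.03), inflammation (15 genes, -0.03), DNA methylation (14 genes, -0.005), the circadian clock (18 genes, -0.02) and ribosomal proteins (54 genes, 0.02). Of all genes tested, 3.03% were under that threshold. The perineuronal net had 1 of 13 members under it (Mmp9, -0.83 ± 0.34 SE, under 2 TPM). The interferon response had 1 of 19 (Oasl, -0.78 ± 0.30 SE, under 1 TPM) and the neuropeptides 1 of 16 (Tac1, above). Mmp9 had -0.64 without animal 35 (unadjusted p of 0.0807). In the respiratory chain, 53 of 74 genes were negative with a median of -0.02, and the 1 gene at that threshold, Cox7a2, was higher at 0.88 ± 0.38 (SE), with 2.29 to 10.5 TPM in controls and 5.25 to 18.3 TPM after stress. Without stress-high animal 7 it had 0.60 (unadjusted p of 0.142).

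Markers of other cell types moved as follows. For comparison, 3.03% of all genes tested had an unadjusted p under 0.05. Of 11 GABA neuron markers, 7 were positive (median 0.08), and Gad2, a GABA-synthesizing enzyme, was higher at 0.34 ± 0.14 (SE) and an unadjusted p of 0.0314. Its highest value, 186 TPM, was in animal 30 and the highest in controls was 116 TPM, against 187 TPM in the left-out animal 2. Gad2 had 0.17 without animal 30 (unadjusted p of 0.116), 0.30 without animal 35 (0.0644) and 0.13 without both (0.232). Without animal 35 the median of that list was 0.20. Of 9 glutamatergic markers, 8 were negative, with a median of -0.11 that became -0.02 without animals 30 and 35. Striatal and central amygdala markers had a median of 0.18, which became 0.59 without animal 35 and 0.17 without animals 30 and 35, and none with an unadjusted p under 0.05. Of the oligodendrocyte precursor markers, 6 of 8 were positive (median 0.07, and -0.03 without animals 30 and 35). Microglia (10 genes) and endothelial markers (9 genes) had medians of 0.02 and -0.03. Ependymal and choroid markers were nearly absent, with a summed level of 1.73 to 3.75 TPM.

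Fibroblast and mural cell markers had a median of -0.13 over 11 genes, and of -0.25 without animals 30 and 35. Col3a1, a fibrillar collagen of the meninges and vessel walls, had -0.76 ± 0.34 (SE), but control animal 35 held 6.65 TPM against 1.36 to 2.61 TPM in the other controls, and without it the log2 fold change was -0.30. Aebp1, another matrix gene, was higher, at 0.33 ± 0.14 (SE). All 4 erythrocyte genes were positive, with Hbb at 0.31 ± 0.13 (SE) and a summed level of 333 to 594 TPM in controls and 463 to 618 TPM after stress. Among the fibroblast, mural and erythrocyte markers, Col3a1, Aebp1 and Hbb had an unadjusted p under 0.05, beside 3.03% of all genes tested. The part of residual blood in any value was not tested.

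Some differences lay between identifiers of one gene. The annotation lists several Ensembl identifiers under some names, and the quantifier divides reads that fit more than 1 of them. Such identifiers made up 4.22% of those tested and 33 of the 462 (7.14%). Smg6, a nuclease of nonsense-mediated decay, shows it most clearly. Its identifier ENSRNOG00000048863 held 0 to 0.02 expected counts in the 6 controls, but 0, 43.1 and 158 in stress-low animals 22, 30 and 34 and 91.8, 33.0 and 38 in stress-high animals 7, 19 and 20. The identifier ENSRNOG00000003041 of the same gene was lower after stress, -0.38 ± 0.11 (SE). With the 3 identifiers summed, Smg6 was at 13.1 ± 1.81 TPM (SD) in controls and 12.6 ± 2.08 TPM (SD) after stress, and the log2 fold change was -0.10 ± 0.09 (SE).

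Other split genes had small summed values too. Mrgbp, a subunit of a histone acetyltransferase complex, had counts under its second identifier only in control animals 17, 32 and 35, and its summed log2 fold change was -0.01 ± 0.06 (SE). CTTN, the actin regulator cortactin, had no overlap between groups after library scaling under ENSRNOG00000047280 (-0.30 ± 0.06 SE), though its TPM overlapped. Cttn under ENSRNOG00000050994 had 0.23 ± 0.08 (SE), and the sum of both identifiers had 0.03 ± 0.06 (SE). The chromatin gene Arid4b had 0.37 ± 0.08 (SE) under ENSRNOG00000049751 and -0.26 ± 0.09 (SE) under ENSRNOG00000016391, with 0.03 ± 0.06 (SE) for the sum. The metabolic enzyme Tpi1 and the myosin Myh9 had counts under a second identifier in control animal 17 alone, and summed values of -0.01 and -0.02. For Cyp11b3, of the family of adrenal steroid enzymes, a second identifier had counts only in control animals 28 and 32 and the sum had -0.24 ± 0.18 (SE).

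**Figure D4:**
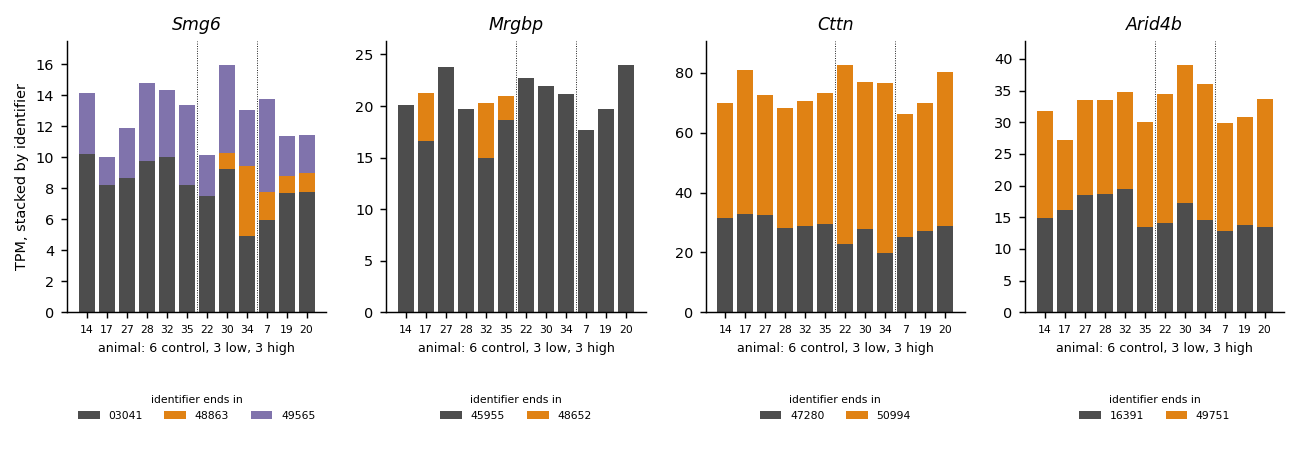
TPM per library (bars, starting at 0) of 4 genes whose reads are divided among identifiers, stacked by identifier, for 6 control, 3 stress-low and 3 stress-high animals. The second Smg6 identifier has visible TPM in 5 stress-exposed libraries and in no control, while the total height overlaps between groups. In Cttn and Arid4b the division between both identifiers differs between groups, and the total heights overlap.

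Mrpl1, a mitochondrial ribosomal protein, has a single identifier. It was at 6.33 to 14.7 TPM in controls (median 12.0), at 20.2, 19.4 and 14.9 TPM in stress-low rats and at 20.1, 19.2 and 16.6 TPM in stress-high rats. All stress-exposed libraries lay above all controls, also above animal 2 at 13.2 TPM. The log2 fold change was 0.69 ± 0.17 (SE), with an unadjusted p of 9.37e-04 and an adjusted p of 1.0 in edgeR. Its expected counts were whole multiples of 8.965, within 0.01 of a step, in 10 of the 12 libraries, from 8 to 21 steps, so its counts are coarser than single reads and the test treats them as more precise than they are. Smg6, Mrgbp, Tpi1, Myh9, Cyp11b3 and Mrpl1 were looked up because the study names them for these samples, so their values are not independent evidence of a direction.

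Of the genes that the study names for the difference between behavioral groups, Sst, Inhbb, Rab31, Rarres2 and Zfp106 had pooled log2 fold changes between -0.14 and 0.02. Ncoa3, a nuclear receptor coactivator, had 0.12 ± 0.07 (SE) over both groups, made of -0.05 in stress-low and 0.30 in stress-high. Rarres2, the adipokine chemerin, likewise had 0.25 in stress-low and -0.41 in stress-high. For both, the pooled value averages over groups that lay on opposite sides of the controls. In the fit with identifiers of one name summed, this also held for Inhbb (-0.46 in stress-low and 0.18 in stress-high). It held there for Rab31 (-0.06 and 0.11) and Zfp106 (-0.09 and 0.03) too, but not for Sst (-0.15 and -0.01).

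The same contrast was measured in the dentate gyrus of rats from the same study, with 5 controls and 6 stress-exposed rats, after leaving out the DG library of animal 35. The animals were not all the same: 27, 30 and 35 were in the BLA set only. Control animal 2 and a stress-low animal without a BLA library were in the DG set only. In the DG, 623 of 14080 genes (4.42%) had an unadjusted p under 0.05 and none passed after adjustment. The difference between regions was tested directly over 15453 genes, and 412 (2.67%) had an unadjusted p under 0.05, none after adjustment. This fit took all libraries as independent, although 9 animals gave both regions. With animal as a block, over those 9 animals, 405 genes had an unadjusted p under 0.05 and none passed after adjustment. Pcp4 had 0.41 in the BLA and -0.08 ± 0.09 (SE) in the DG, a difference of 0.50 ± 0.14 (SE) and an unadjusted p of 0.00216. Slc7a11 had -0.28 in the BLA and -0.02 ± 0.06 (SE) in the DG, a difference of -0.25 ± 0.10 (SE). Rnf135 and Mrpl1 had positive values in both regions, 0.35 and 0.34 in the DG, and differences between regions of 0.26 ± 0.21 and 0.36 ± 0.25 (SE). Insig1 was alike in both, with 0.18 in the DG and a difference of 0.02 ± 0.11 (SE). With no adjusted difference, none of these genes is shown to be particular to the BLA.

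**Figure D5:**
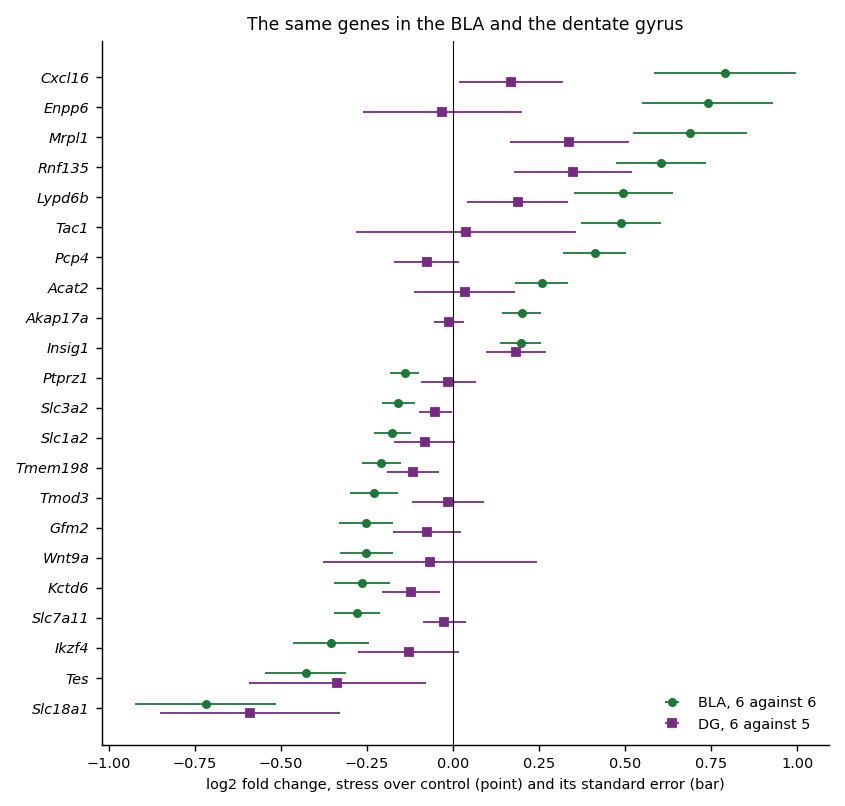
Log2 fold change of stress over control (horizontal axis) in the BLA (circles) and in the DG (squares) for the 22 of 24 named genes that were tested in both regions, with bars for 1 standard error. The genes were chosen on their BLA values, so the BLA points lie away from 0 by selection. Pcp4, Enpp6 and Slc7a11 have DG values between -0.08 and -0.02.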

How the data were processed

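Poly-A RNA of left BLA punches was sequenced by the authors, who aligned the reads with STAR 2.6.0a to the rat Rn5 assembly with Ensembl annotation and quantified genes with RSEM 1.3.1. The deposited tables hold expected counts, which RSEM estimates per gene and which were rounded here, and TPM, scaled by the authors per library and transcript length. Replicates are separate animals. The deposited depth was 12709493 to 22801247 expected counts per library, which limits precision for genes near 1 TPM. The exact permutation tests and levels used the deposited TPM.

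Genes passing a count filter (minimum count 10) were scaled by TMM and tested in edgeR 4.0.16 (R 4.3.3) with 3 group means, the contrast being the mean of both stress groups minus control, and p-values adjusted by Benjamini-Hochberg over all 15230 genes. The authors' own method could not be run here. A minus in a log2 fold change means lower after stress. DESeq2 1.42.0 and limma 3.58.1, on log2(TPM + 1), were alternatives, with RLE size factors, no filter, other groupings and each library left out. The test was checked on simulated data. Replicate numbers in the titles do not pair the samples: deviations of samples that share a number correlated between -0.126 and 0.0725 over 13 pairs.

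The members and the gene lists were chosen with earlier results of these data known. Genes named in the text were the 12 higher and 12 lower genes with the smallest unadjusted p (mean TPM at least 1, 1 identifier, same sign in both stress groups), members of each list at an unadjusted p under 0.05 (at most 4, otherwise the 1 with the smallest p), genes without overlap and genes the study names. Other list members, Myl3, Scara5, RGD1565183 and the pair of animals 30 and 35 left out together were chosen after values were seen. List counts and medians cover genes with 1 identifier. Promoters are RefSeq sequence of GRCr8, not of the build of the counts. Some list members are not reported here.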

Additional observations from a re-analysis of the deposited data

Results flagged for a closer look

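The genes with the smallest p and without overlap were checked for a single library far from the other controls, as was the total count. Chance alone flags about 1 in 20 such groups. Of 32 checked, 2 were flagged, which is near that rate. Pcp4 was at 258.6 TPM in control animal 35, against 197.8 to 218.1 TPM in the other 5 controls, and this is the control whose labels disagree and whose striatal and central amygdala marker sum was the highest of the 6. The second Arid4b identifier (ENSRNOG00000049751) was at 11.2 TPM in control animal 17, against 14.9 to 16.8 TPM in the others, and the same animal held counts under the second identifiers of Mrgbp, Myh9 and Tpi1.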

How the results depend on the processing

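For stress against control, the number of genes with an adjusted p under 0.05 was 0 in the reported fit, with the replicate block, RLE size factors, no filter, both 2-group fits, all 13 libraries, animal 35 taken as stress-exposed, limma on log2(TPM + 1), identifiers summed and animals 30 and 35 left out. It was 2 in DESeq2 (Smg6 under ENSRNOG00000048863, at 8.14 on the log2 scale, and 1 unnamed identifier), 1 in limma on log2(TPM + 0.1), 1 in limma on log2(TPM + 1) without a filter, and 0 to 1 over leaving out each library, the 1 being RGD1565183 without stress-high animal 20. For stress-low the number was 2 in DESeq2, 1 in limma on log2(TPM + 1) and 2 in limma on log2(TPM + 0.1). For stress-high it was 3 in DESeq2, 2 in limma without a filter, 1 without animals 30 and 35, and 0 to 1 over leaving out each library. For stress-high against stress-low it was 1 in DESeq2, 2 in limma on log2(TPM + 0.1), 1 in limma without a filter and 0 to 1 over leaving out each library. The cause was not tested.

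At an unadjusted p under 0.05, the pooled count of 462 became 708 without a filter on low counts (more genes were tested), 482 in the 2-group fit, 813 in the 2-group fit with animal 35 taken as stress-exposed, 455 in DESeq2, 582 with the replicate block and 393 to 609 over leaving out each library. Replicate numbers did not pair the samples, so a count under the block is no measure of strength; animal as a block in the region difference gave 405 genes against 412. Of the 462 genes, 333 (72.1%) were among the 606 without animal 35 and 289 (62.6%) among the 453 with all 13 libraries. Without a filter, stress-high gave 600 and stress-high against stress-low 486. In limma on log2(TPM + 1) for all genes, stress-low gave 649 and stress-high against stress-low 575. The latter was 629 without animals 30 and 35 and 235 to 603 over leaving out each library (302 reported, 459 without animal 7 and 603 without animal 30).

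Genes without overlap numbered 25 (9 higher, 16 lower), 12 in TPM (9 and 3), 15 with all 13 libraries (5 and 10), 60 without animal 35 (29 and 31) and 93 without animals 30 and 35. The GABA neuron median of 0.08 was 0.20 without animal 35. Without animals 30 and 35 the inflammation median was -0.0011 and the oligodendrocyte precursor median -0.030.

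The 24 genes with the smallest p kept their sign in all 25 alternatives, which their choice largely fixes. Signs turned in the following genes. Tpi1 was 0.0013 without a filter, 0.017 with all 13 libraries, 0.012 in all 3 limma fits, 0.016 without animals 30 and 35 and -0.032 to 0.024 over leaving out each library. SMG6 (ENSRNOG00000049565) was 0.035 with animal number as covariate, 0.14 with animal 35 as stress-exposed, 0.039 with the replicate block and -0.37 to 0.11 over leaving out each library. Myh9 was -0.047 with all 13 libraries, -0.017 summed and -0.021 to 0.058 over leaving out each library. Prkcd was -0.034 with all 13 libraries and Col3a1 (reported at -0.76) 0.21 with animal 35 as stress-exposed. Summing turned CTTN (0.031), MRGBP (-0.014), Cyp11b3 (-0.24) and Smg6 under ENSRNOG00000048863 (-0.10). Over leaving out each library Kdr ranged from -0.25 to 0.0012, Ccdc153 from -0.27 to 0.10, Rarres2 from -0.18 to 0.032 and Cyp11b3 from -0.10 to 0.44. Summing identifiers and leaving out animals 30 and 35 together were chosen after seeing the data.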
